A study of Mus musculus with 6 samples.

Results

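The genes described here are 49 interferon-stimulated and antigen presentation genes, taken by symbol from the 21240 genes of a count table of NMuMG cells. All 49 symbols were in the table. NMuMG is an epithelial cell line from the mouse mammary gland, and every library came from this line without genetic modification stated in the labels. Cells of all groups were kept without serum and, by the methods of the study, without insulin for 6 h before the agents were added. The vehicle group then received the diluent of the cytokine with BSA for 2 h, the TGFb2h group 5 ng/ml TGFβ1 for 2 h and the TGFb12h group 5 ng/ml TGFβ1 for 12 h. Stranded total RNA of 2 biological replicates per group was sequenced, which gave 6 libraries of 14705886 to 23786993 counts. Because the vehicle was taken at 2 h, 12 h of TGFβ and a longer time without serum and insulin cannot be told apart in the comparison of 12 h with vehicle. The same limit holds for the comparison of 12 h with 2 h of TGFβ. In these bulk samples fewer cells that express a gene and less RNA per cell cannot be told apart either.

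Interferons act through receptors that carry JAK kinases. Type I and type III interferons act on many genes through a complex with Stat2 and Irf9 that binds the interferon-stimulated response element (ISRE), and interferon gamma acts through the gamma-activated sequence (GAS). Most epithelial cells keep a low tonic level of interferon-stimulated transcripts without infection, and MHC class I molecules present peptides that the proteasome cuts and the Tap transporter carries into the endoplasmic reticulum. TGFβ is known as a cytokine that restrains immune responses and drives epithelial-mesenchymal transition in this cell line.

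Proximal promoters of 5 members are shown because they carry these elements and because the same element stands before genes that were too low to judge, that fell and that did not fall. RefSeq windows on GRCm38.p6, from 250 bases before to 50 bases after the annotated start, were found for 38 of the 49 members. In each sequence the last base printed lies next to the start, lower case is sequence without a match, and capitals mark matches, on either strand, to the ISRE (GAAA, any 2 bases, GAAA) or the GAS (TTC, any 3 bases, GAA). The 3 ISRE matches before Isg15 overlap each other, those of Bst2 overlap each other and a GAS match, Ifit1 carries 2 ISRE matches on the opposite strand, B2m carries 1 ISRE match and Irf1 carries 1 GAS match.
Isg15 (chr4:156200819-156200968, minus strand): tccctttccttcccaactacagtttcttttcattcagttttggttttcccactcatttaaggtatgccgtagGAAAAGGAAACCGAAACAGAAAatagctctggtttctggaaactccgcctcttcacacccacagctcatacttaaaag
Ifit1 (chr19:34640739-34640888, plus strand): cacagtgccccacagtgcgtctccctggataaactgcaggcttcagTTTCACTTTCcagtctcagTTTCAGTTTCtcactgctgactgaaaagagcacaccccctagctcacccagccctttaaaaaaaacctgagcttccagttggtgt
Bst2 (chr8:71537473-71537622, minus strand): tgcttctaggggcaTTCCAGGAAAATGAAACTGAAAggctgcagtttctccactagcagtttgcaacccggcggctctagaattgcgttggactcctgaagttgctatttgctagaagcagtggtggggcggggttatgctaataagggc
B2m (chr2:122147537-122147686, plus strand): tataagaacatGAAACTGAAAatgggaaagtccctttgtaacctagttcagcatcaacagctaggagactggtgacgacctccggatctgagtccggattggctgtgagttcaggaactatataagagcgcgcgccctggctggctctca
Irf1 (chr11:53769864-53770013, plus strand): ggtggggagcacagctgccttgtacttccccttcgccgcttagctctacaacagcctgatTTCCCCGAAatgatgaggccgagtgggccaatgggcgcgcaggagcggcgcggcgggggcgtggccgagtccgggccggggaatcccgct

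Of the 38 members with a window, 15 (39.5%) held an ISRE match, against 3.99% of 27025 genes with a window of the same length. A GAS match was found for 8 members (21.1%), against 9.55% of those genes. These shares describe letters in the windows and were given no test.

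Of the 49 members, 27 reached 2 CPM (counts scaled to a common library size) in at least 2 libraries and were tested, and 22 were too low to judge. This filter used CPM without TMM factors, whereas the levels given here include them, so a printed level just above or below 2 CPM can lie on the other side in the filter. Of the tested members, 22 reached that level in all 6 libraries, while Irf7 and Mx2 reached it in the vehicle libraries only, so that their being tested already depended on a lower level with TGFβ. The 49 genes together held 0.139% to 0.14% of all counts with vehicle, 0.112% to 0.115% at 2 h and 0.0941% to 0.104% at 12 h. The summed level of the 41 members outside antigen presentation was 899 and 874 CPM in vehicle, 720 and 709 CPM at 2 h, and 535 and 581 CPM at 12 h, so the libraries of the 3 groups did not overlap. Abundant genes weigh most in such a sum. Samd9l alone was at 211 and 205 CPM in vehicle and 136 and 94.6 CPM at 2 h, while Lgals3bp was at 163 and 163 CPM and at 171 and 196 CPM. For the 8 antigen presentation genes the sum was 440 and 428 CPM in vehicle, 449 and 449 CPM at 2 h, and 440 and 492 CPM at 12 h.

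**Figure D1:**
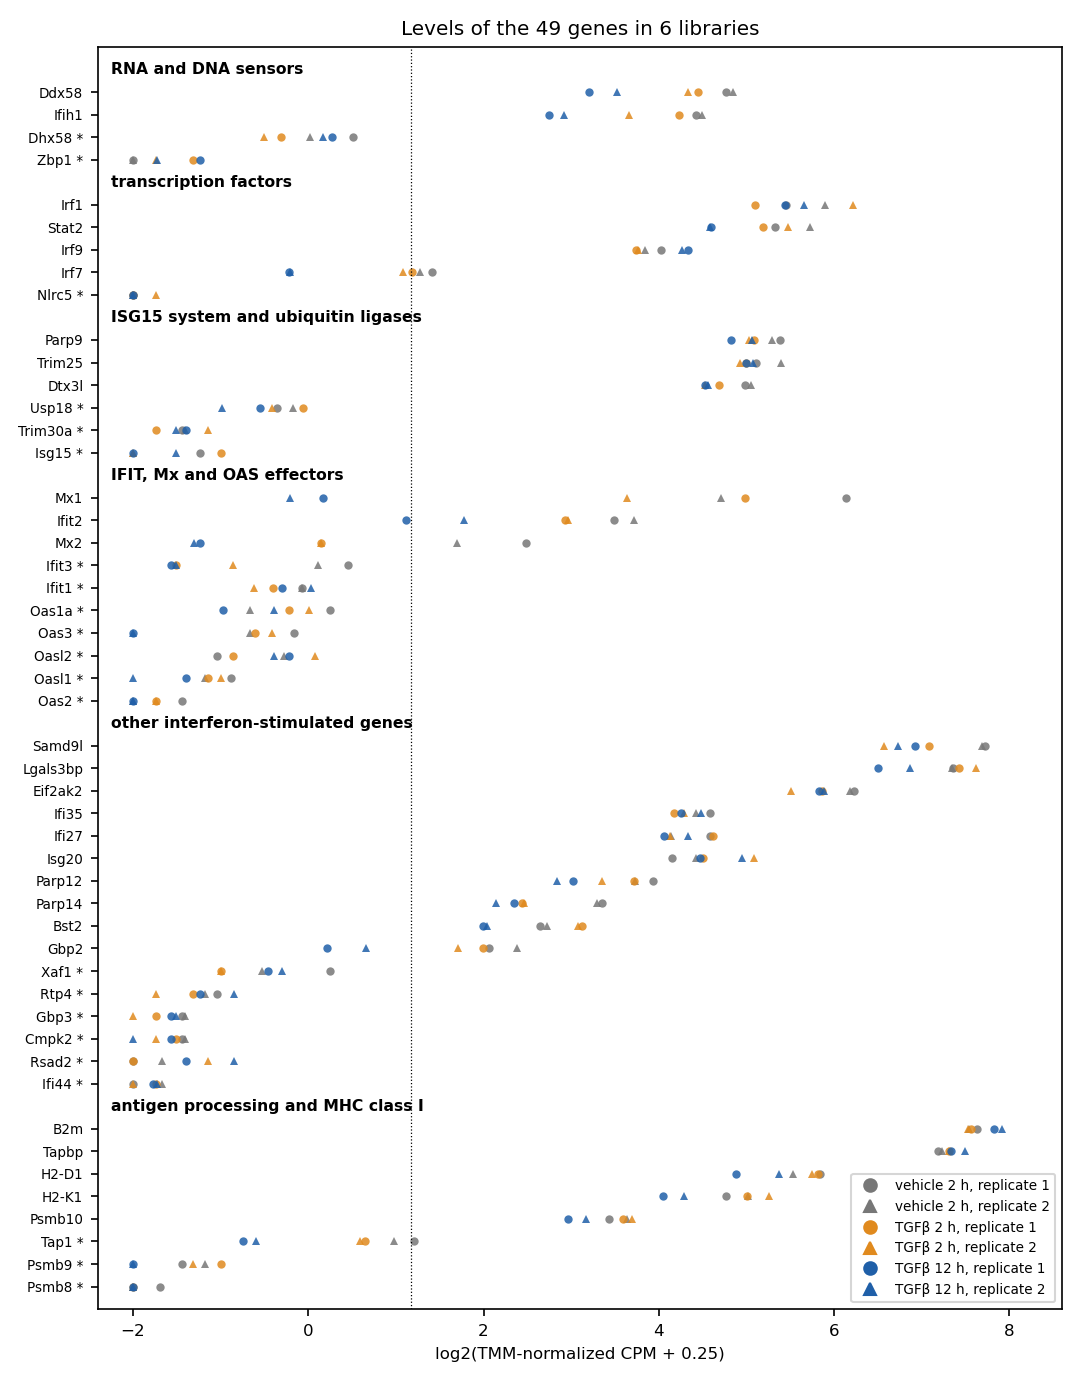
Level of each of the 49 genes in the 6 libraries, grouped by role, as log2 of TMM-normalized CPM plus 0.25; circles are replicate 1, triangles replicate 2, stars mark the 22 genes that were not tested, and the dotted line is 2 CPM. The blue symbols of 12 h lie left of the grey vehicle symbols for Mx1, Mx2, Ifit2, Ddx58, Ifih1, Irf7 and Gbp2, while those of B2m lie to the right.

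At 2 h of TGFβ, 3 members were lower than with vehicle and none was higher at an adjusted p under 0.05 by edgeR's quasi-likelihood test. Of the 11080 genes tested, 5.25% were lower and 9.91% higher in that comparison. At 12 h, 16 of the 27 tested members were lower and none was higher, where 21.5% of all genes tested were lower and 21.8% higher. Among the 22 members with 2 CPM in every library, 2 were lower at 2 h and 11 at 12 h, and none was higher at either time. This set leaves out Mx1, Mx2, Ifit2, Gbp2 and Irf7, which had the largest falls of the tested members at 12 h. The share of all genes under this stricter rule was not computed. An unadjusted p under 0.05 was reached by 7 lower and 1 higher member at 2 h, against 12.8% and 16.9% of all genes tested, and by 19 lower and 2 higher members at 12 h, against 25.7% and 25.9%. Limma-voom called no higher member at either time, and DESeq2 called 1 at 12 h, which was B2m.

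With the replicate number as a block, 7 members were lower and 1 was higher at 2 h, where 12.7% of all genes were lower and 16.4% higher. In that fit 19 members were lower and 3 higher at 12 h, against 27.5% and 27.8% of all genes. The median log2FC of the 27 members was -0.28 at 2 h and -0.66 at 12 h, and that of all genes tested was -0.01 and 0.02. Both replicates had a lower level than their vehicle partner for 18 of the 27 members at 2 h and for 21 at 12 h, against 40.5% and 41.4% of all genes tested. Both 12 h libraries lay below both vehicle libraries for 20 of the 27 members and above them for 4, where 37.2% of all genes tested were lower and 39.5% higher by this measure.

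A lower level at 12 h with log2FC below -1 was found for 8 members, namely Mx1, Mx2, Ifit2, Gbp2, Irf7, Ifih1, Ddx58 and Parp14, where 11.6% of all genes tested were lower by that measure. The other 8 members lower at 12 h were Stat2, Parp12, Samd9l, H2-K1, Bst2, Lgals3bp, Dtx3l and Parp9, with log2FC between -0.96 and -0.39. Between 2 h and 12 h, 13 members fell and 2 rose (background 18.9% lower and 15.2% higher). For 7 of the 27 tested members the log2FC against vehicle had opposite signs at the 2 times and the difference between the times was called, as for 14% of all genes tested. Irf1, Trim25, Isg20, Eif2ak2, Ifi35, Ifi27 and Tapbp passed the test in none of the 3 comparisons. The calls at 12 h against vehicle of Dtx3l, Parp9, Bst2, Lgals3bp, Parp12, Samd9l and H2-K1 were lost when 1 or more of the vehicle or 12 h libraries was left out. Those of the other members called at 12 h held in every alternative in which they were tested. Among these, Irf7 and Mx2, which reached the filter in the vehicle libraries only, were tested in 12 and 11 alternatives, and the others in 14.

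**Figure D2:**
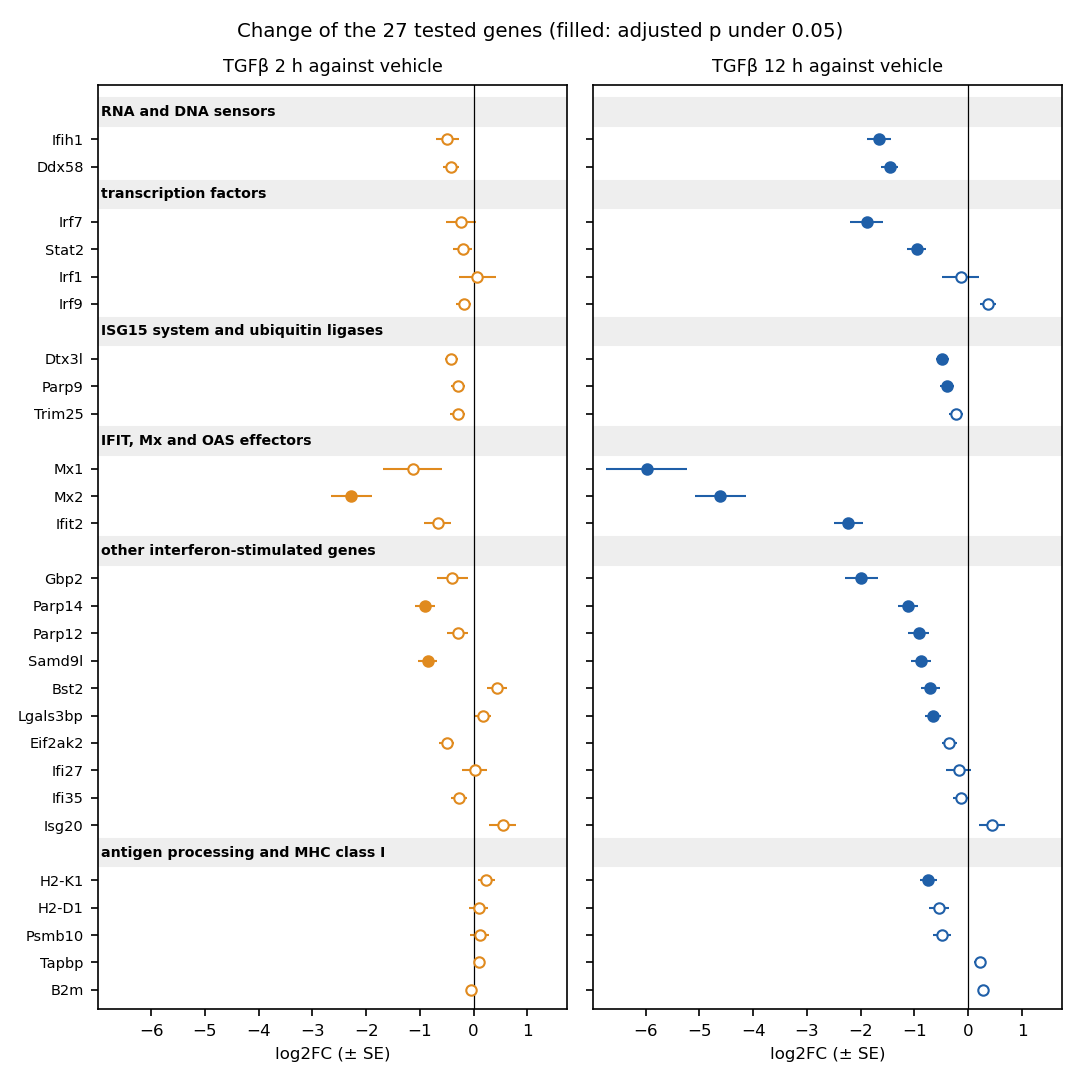
Log2FC with its standard error for the 27 tested members at 2 h (left, orange) and 12 h (right, blue) against vehicle, from the edgeR fit of all 6 libraries; filled symbols have an adjusted p under 0.05. At 2 h the filled symbols are Mx2, Parp14 and Samd9l, and at 12 h there are 16, all left of 0.

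Both tested RNA sensors fell at 12 h. Ddx58, which encodes RIG-I, a sensor of RNA ends, was at 27.1 and 28.5 CPM in vehicle, 21.6 and 19.96 CPM at 2 h and 8.97 and 11.2 CPM at 12 h. Its log2FC was -0.42 ± 0.15 at 2 h (SE, edgeR adjusted p = 0.125) and -1.46 ± 0.16 at 12 h (edgeR adjusted p = 0.000611). The 3 groups did not overlap, and the fall between 2 h and 12 h also passed the test (log2FC -1.04, edgeR adjusted p = 0.00372).

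Ifih1, which encodes MDA5, a sensor of long double-stranded RNA, was at 21.3 and 22.2 CPM in vehicle, 18.5 and 12.4 CPM at 2 h and 6.49 and 7.34 CPM at 12 h. The 2 h libraries lay below the vehicle libraries and differed from each other more than in the other groups. Its log2FC was -0.49 ± 0.21 at 2 h (edgeR adjusted p = 0.181) and -1.65 ± 0.22 at 12 h (edgeR adjusted p = 0.00145). The other sensors of the list were too low: Dhx58, which encodes LGP2, had 9 to 22 counts per library and Zbp1, a sensor of Z-form nucleic acids, had 0 to 4.

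Among the transcription factors, Irf7 and Stat2 fell at 12 h, Irf9 rose between 2 h and 12 h, and Irf1 did not pass in any comparison. Irf7, the factor that amplifies type I interferon production, was at 2.41 and 2.16 CPM in vehicle, 2.02 and 1.86 CPM at 2 h and 0.609 and 0.616 CPM at 12 h. These levels rest on 41 and 34 counts with vehicle and on 14 and 12 counts at 12 h. The log2FC at 12 h was -1.89 ± 0.31 (edgeR adjusted p = 0.00311).

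Stat2, the subunit of the ISRE-binding complex that carries its main activation domain, was at 39.9 and 52.7 CPM in vehicle, 36.1 and 44.2 CPM at 2 h and 23.9 and 23.8 CPM at 12 h. The 2 h libraries overlapped those of vehicle and the 12 h libraries lay below all others. The log2FC was -0.21 ± 0.17 at 2 h and -0.96 ± 0.17 at 12 h, where the edgeR adjusted p was 0.465 and 0.00476.

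Irf9, the DNA-binding subunit of the same complex, was at 16.1 and 14.1 CPM in vehicle, 13.1 and 13.4 CPM at 2 h and 19.9 and 19.04 CPM at 12 h. Its 12 h libraries were above all others. The log2FC at 12 h against vehicle was 0.37 ± 0.14 (edgeR adjusted p = 0.0764, 0.0462 under the block), and from 2 h to 12 h it was 0.56 ± 0.14 (edgeR adjusted p = 0.0238).

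Irf1, a factor that interferon gamma induces, ranged from 33.9 to 74.0 CPM, and both extremes were libraries of 2 h. Nlrc5, the transactivator of MHC class I genes, had 1 count in a single 2 h library and 0 in the other 5.

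In the ISG15 system, Isg15 itself and its protease Usp18 were too low to judge, and the ligase partners Dtx3l and Parp9 fell by a small amount at 12 h. Isg15, the ubiquitin-like modifier whose promoter is printed above with 3 ISRE matches, had 0 to 5 counts per library. Usp18 had 5 to 14 counts and Trim30a 1 to 4. Dtx3l, a ubiquitin ligase, was at 31.5 and 33.0 CPM in vehicle, 25.5 and 22.8 CPM at 2 h and 22.8 and 23.3 CPM at 12 h. Its log2FC was -0.42 ± 0.12 at 2 h (edgeR adjusted p = 0.068, 0.0308 under the block) and -0.49 ± 0.12 at 12 h (edgeR adjusted p = 0.0181).

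Parp9, which binds Dtx3l and has an ADP-ribosyltransferase domain, was at 41.5 and 39.0 CPM in vehicle, 33.7 and 32.4 CPM at 2 h and 28.1 and 33.3 CPM at 12 h, with log2FC -0.39 ± 0.13 at 12 h (edgeR adjusted p = 0.0448). For Dtx3l and Parp9 the libraries of both TGFβ times lay below the vehicle libraries. Trim25, a ligase that modifies RIG-I, was at 34.4 and 41.8 CPM in vehicle and between 30.2 and 33.6 CPM in the 4 TGFβ libraries, and passed no test (log2FC -0.22 at 12 h, edgeR adjusted p = 0.22).

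The largest negative log2FC of the tested members at 12 h were those of the antiviral GTPases Mx1 and Mx2. Mx1 was at 69.8 and 26.0 CPM in vehicle, 31.4 and 12.2 CPM at 2 h and 0.871 and 0.616 CPM at 12 h. Replicate 1 was above replicate 2 in each group, and the 2 h library of replicate 1 lay inside the vehicle range, whereas both 12 h libraries, with 20 and 12 counts, lay far below it. The log2FC was -1.14 ± 0.55 at 2 h (edgeR adjusted p = 0.23) and -5.98 ± 0.76 at 12 h (edgeR adjusted p = 0.00115). With the replicate block the fall at 2 h passed the test (log2FC -1.12, edgeR adjusted p = 0.000498). With 1 library left out, the log2FC at 2 h lay between -0.25 without veh replicate 1 and -1.99 without TGFb2h replicate 1 (edgeR adjusted p = 0.838 and 0.0421), and at 12 h between -5.11 without veh replicate 1 and -6.53 without veh replicate 2, where it was called each time.

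Mx2 was at 5.35 and 2.99 CPM in vehicle, 0.860 and 0.857 CPM at 2 h and 0.174 and 0.154 CPM at 12 h, which are 91 and 47, 17 and 17, and 4 and 3 counts. It had already fallen at 2 h, with log2FC -2.28 ± 0.38 (edgeR adjusted p = 0.0106, in a test that Mx2 did not enter when a vehicle library was left out), and the log2FC at 12 h was -4.61 ± 0.48 (edgeR adjusted p = 0.000508). The 3 groups did not overlap.

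Mx1 was also the only tested member called lower in replicate 2 than in replicate 1 across the 3 groups, with log2FC -1.33 ± 0.14 (edgeR adjusted p = 0.00353). Isg20 was the only one called higher (0.45 ± 0.10, edgeR adjusted p = 0.0406). Others, such as Parp12 and H2-K1, lay on 1 side in each group without being called. Of all genes tested, 3.52% were called lower and 2.85% called higher in replicate 2.

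Ifit2, a member of the RNA-binding IFIT family, was at 10.9 and 12.9 CPM in vehicle, 7.38 and 7.56 CPM at 2 h and 1.92 and 3.18 CPM at 12 h. The groups did not overlap and the log2FC was -0.67 ± 0.25 at 2 h (edgeR adjusted p = 0.133, 0.0293 under the block) and -2.23 ± 0.27 at 12 h (edgeR adjusted p = 0.000985). Its neighbors Ifit3 and Ifit1 were too low. Ifit3 had 19 and 13 counts with vehicle, 2 and 6 at 2 h and 2 and 2 at 12 h, and Ifit1 had 8 to 15 counts with the highest count at 12 h. The 5 OAS members, whose family makes the oligoadenylates that activate RNase L, had at most 16 counts in any library. Oas3 had 11 and 6 counts with vehicle, 8 and 10 at 2 h and none at 12 h, which makes its level at 12 h at least 3.62-fold lower than with vehicle when 3 counts per library are set as the floor. Oas1a, Oas2, Oasl1 and Oasl2 were at 6 to 16, 0 to 2, 0 to 5 and 4 to 16 counts.

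**Figure D3:**
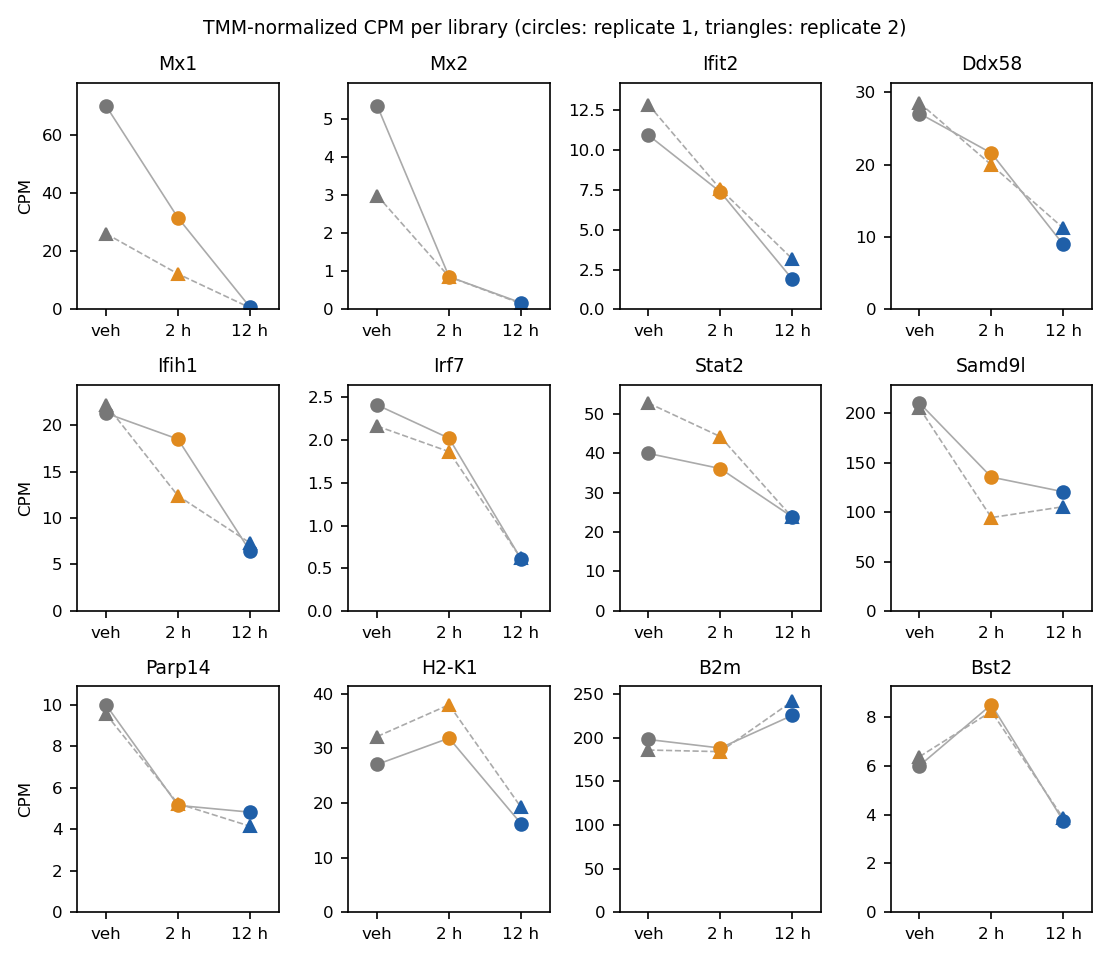
TMM-normalized CPM of 12 members in each library (linear axes that start at 0; lines join libraries with the same replicate number). Mx1 has a different level in the 2 replicates and falls to below 1 CPM in both at 12 h, the 2 h symbols of Samd9l and Parp14 lie nearer to those of 12 h than to those of vehicle, and B2m is highest at 12 h.

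Of the other interferon-stimulated genes, Samd9l and Parp14 were lower at both times, and Gbp2, Parp12, Bst2 and Lgals3bp were lower at 12 h. Samd9l, an antiviral factor that restrains translation, was at 211 and 205 CPM in vehicle, 136 and 94.6 CPM at 2 h and 121 and 106 CPM at 12 h. The log2FC was -0.85 ± 0.18 at 2 h and -0.88 ± 0.18 at 12 h, with edgeR adjusted p of 0.0235 and 0.00778. Its 12 h libraries lay within the range of the 2 h libraries, and the difference between the times was -0.02 ± 0.18.

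Parp14, a mono-ADP-ribosyltransferase, was at 10.0 and 9.55 CPM in vehicle, 5.16 and 5.24 CPM at 2 h and 4.83 and 4.16 CPM at 12 h. The log2FC was -0.91 ± 0.19 at 2 h (edgeR adjusted p = 0.0218) and -1.12 ± 0.19 at 12 h (edgeR adjusted p = 0.00351). All TGFβ libraries of Samd9l and Parp14 were below both vehicle libraries. The calls of both genes at 2 h were lost when any 1 of the vehicle or 12 h libraries was left out, with edgeR adjusted p up to 0.106 for Samd9l and 0.123 for Parp14. That of Samd9l was also lost in a fit of only the vehicle and 2 h groups, and that of Parp14 without the 2 h library of replicate 2.

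Gbp2, an interferon-induced GTPase that acts on pathogen membranes, was at 3.94 and 4.97 CPM in vehicle, 3.74 and 3.02 CPM at 2 h and 0.914 and 1.33 CPM at 12 h. Its log2FC was -0.39 ± 0.28 at 2 h (edgeR adjusted p = 0.401) and -1.99 ± 0.31 at 12 h (edgeR adjusted p = 0.00267). Parp12, another ADP-ribosyltransferase, had a log2FC of -0.92 at 12 h (edgeR adjusted p = 0.01) and of -0.63 from 2 h to 12 h (edgeR adjusted p = 0.0503, 0.00934 under the block).

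Bst2 and Lgals3bp had positive values at 2 h and fell at 12 h. Bst2 encodes tetherin, which holds budding virus at the cell surface, and its printed promoter carries overlapping ISRE and GAS matches. It was at 6.00 and 6.37 CPM in vehicle, 8.49 and 8.22 CPM at 2 h and 3.74 and 3.85 CPM at 12 h, with no overlap between groups. The log2FC was 0.43 ± 0.18 at 2 h (edgeR adjusted p = 0.162), -0.70 ± 0.18 at 12 h (edgeR adjusted p = 0.021) and -1.14 ± 0.18 from 2 h to 12 h (edgeR adjusted p = 0.00439). Lgals3bp, a secreted glycoprotein, was at 163 and 163 CPM in vehicle, 171 and 196 CPM at 2 h and 90.2 and 117 CPM at 12 h, and its log2FC at 12 h was -0.66 ± 0.15 (edgeR adjusted p = 0.0114).

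Isg20 and Eif2ak2 did not pass the test at 2 h, and both passed it with the replicate block and without TGFb2h replicate 1. Isg20, an RNA exonuclease, was at 17.5 and 21.1 CPM in vehicle, 22.5 and 33.8 CPM at 2 h and 22.0 and 30.5 CPM at 12 h, and replicate 2 was the higher one in each group. Its log2FC at 2 h was 0.55 ± 0.25 (edgeR adjusted p = 0.207, 0.0154 under the block), and at 12 h 0.44 ± 0.25 (edgeR adjusted p = 0.199, 0.019 under the block). Eif2ak2, which encodes the kinase PKR that halts translation on double-stranded RNA, was at 74.4 and 72.2 CPM in vehicle, 58.1 and 45.4 CPM at 2 h and 56.4 and 58.8 CPM at 12 h. Its log2FC was -0.50 ± 0.14 at 2 h (edgeR adjusted p = 0.0532, 0.0117 under the block) and -0.35 ± 0.13 at 12 h (edgeR adjusted p = 0.0778, 0.0312 under the block), where it passed in 5 of 14 alternative settings.

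Ifi35 and Ifi27 lay between 16.4 and 24.3 CPM in all libraries and were not called. The remaining genes of this list were too low: Xaf1 had 5 to 16 counts, Rtp4 and Rsad2, which encodes viperin, had at most 6, and Cmpk2, Gbp3 and Ifi44 had at most 2.

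The antigen presentation genes split into a well expressed part and a part near zero. On the scale of CPM per kb of exon, B2m, the light chain of MHC class I, had the highest vehicle level of all members with a known length (223), followed by Lgals3bp (57.2), Tapbp (44.7), Samd9l (38.3) and H2-D1 (19.9). Libraries of vehicle did not overlap between neighbors in this order. The catalytic subunits of the immunoproteasome were far below the constitutive subunits that they replace: Psmb8 was at 0.0108 CPM per kb with vehicle where Psmb5 was at 17.4, Psmb9 at 0.0423 where Psmb6 was at 81.6, and Psmb10 at 8.96 where Psmb7 was at 135. Psmb8 had 1 count in all 6 libraries together, and Psmb9 had 2 and 3 counts with vehicle, 5 and 3 at 2 h and none at 12 h. None of Psmb5, Psmb6 and Psmb7 passed the test at 2 h or 12 h without the block. With the block Psmb5 and Psmb6 were higher at 12 h (edgeR adjusted p = 0.0119 and 0.0188, against 0.0665 and 0.0567 without it), and these 2 also had an unadjusted p under 0.05 without it.

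H2-K1 and H2-D1 encode classical MHC class I heavy chains. H2-K1 was at 27.1 and 32.2 CPM in vehicle, 31.9 and 38.0 CPM at 2 h and 16.2 and 19.2 CPM at 12 h. Its 12 h libraries were below all others and the log2FC at 12 h was -0.74 ± 0.16 (edgeR adjusted p = 0.0111), after 0.24 ± 0.16 at 2 h (edgeR adjusted p = 0.375). From 2 h to 12 h it fell by 0.98 on the log2 scale (edgeR adjusted p = 0.00527).

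H2-D1 was at 56.8 and 46.0 CPM in vehicle, 56.0 and 53.6 CPM at 2 h and 29.3 and 41.0 CPM at 12 h. Its log2FC at 12 h was -0.55 ± 0.19 (edgeR adjusted p = 0.0514, 0.0192 under the block), a change that passed in 11 of 14 alternative settings, and the fall from 2 h to 12 h passed the test (-0.64 ± 0.19, edgeR adjusted p = 0.0372). H2-K1 and H2-D1 are closely related paralogs, as are the members of the Ifit, Oas and Gbp families, and uniquely mapped reads may divide unevenly between them.

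B2m was at 198 and 186 CPM in vehicle, 188 and 184 CPM at 2 h and 226 and 242 CPM at 12 h. The 12 h libraries were above all others, with log2FC 0.28 ± 0.10 against vehicle (edgeR adjusted p = 0.0542, 0.0291 under the block) and 0.33 ± 0.10 against 2 h (edgeR adjusted p = 0.0408). The heavy chains and the light chain thus had opposite signs between 2 h and 12 h. An ISRE match stood before B2m, and the windows of H2-K1 and H2-D1 held no match to the exact letters searched. Variant forms of these elements were not searched, and a link between matches and signs was not tested.

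Tapbp, which encodes tapasin, was at 145 to 180 CPM and passed no test. Psmb10 was at 10.5 and 12.2 CPM in vehicle, 11.8 and 12.7 CPM at 2 h and 7.53 and 8.72 CPM at 12 h, with log2FC -0.49 ± 0.17 at 12 h (edgeR adjusted p = 0.0609, 0.0241 under the block). Tap1, the peptide transporter subunit, had 35 and 27 counts with vehicle, 26 and 25 at 2 h and 8 and 8 at 12 h, and missed the filter.

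**Figure D4:**
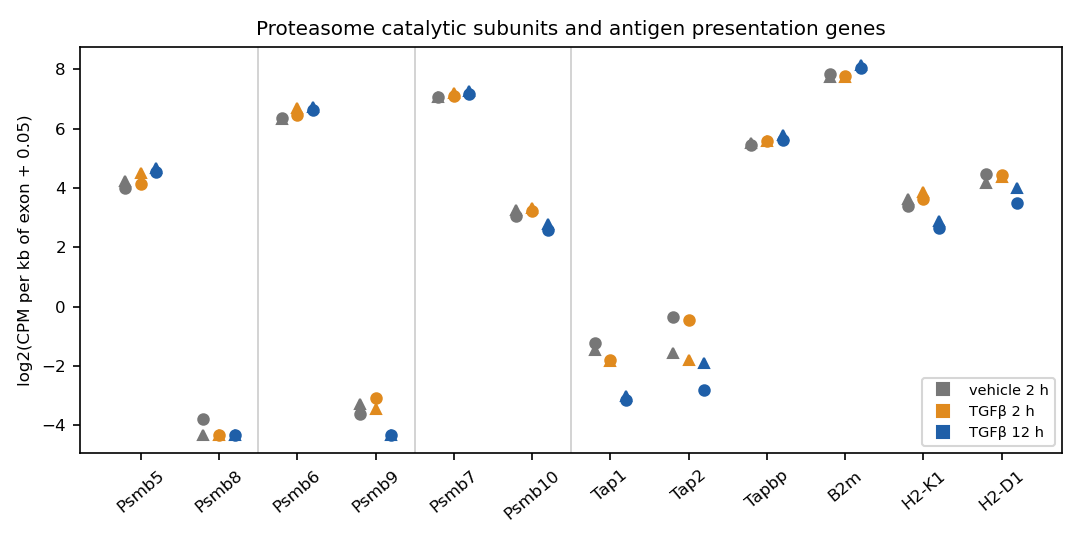
Level of the proteasome catalytic subunits, in pairs of a constitutive and an interferon-induced subunit, and of the other antigen presentation genes, as log2 of CPM per kb of exon plus 0.05; circles are replicate 1 and triangles replicate 2. Psmb8 and Psmb9 lie at the bottom of the axis, B2m at the top, and H2-K1, H2-D1, Psmb10 and Tap1 are lowest at 12 h.

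Without a filter on low counts, 3 of the 22 low members were called at 12 h, all lower than with vehicle, where 6.06% of the 5035 genes below the filter were called lower and 2.92% higher in that fit. The 3 members were Tap1 (log2FC -2.30 ± 0.39, edgeR adjusted p = 0.00178), Ifit3 and Oas3. None was called at 2 h (0.338% of these genes lower and 0.576% higher), and Tap1 and Oas3 were lower at 12 h than at 2 h (3.89% of these genes). Nlrc5, Oas2, Cmpk2, Ifi44, Gbp3 and Psmb8 had at most 3 counts in each library, which is 0.131 to 0.191 CPM, and differences of these genes were not detectable at this depth.

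Members lie in 8 groups of neighbors on the NCBIM37 assembly (mm9), with gaps of at most 200 kb, that hold 22 of the 48 members with a position. Mx1 and Mx2 are adjacent members at chr16:97668642-97782506, and both fell at 12 h. Parp14, Dtx3l and Parp9 lie at chr16:35832960-35972691 and fell at 12 h by unequal amounts, with log2FC -1.12, -0.49 and -0.39. Dtx3l and Parp9 overlap at their ends on opposite strands, and the reads were counted by strand. At chr17:34052844-34338399, in the MHC, Tapbp, H2-K1, Psmb9, Tap1 and Psmb8 stand together. Of these H2-K1 and Tapbp were tested, with log2FC -0.74 and 0.21 at 12 h.

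The 7 tested members with an ISRE match in the promoter window were Ifih1, Ddx58, Stat2, Gbp2, Bst2, Eif2ak2 and B2m. Of these, 5 were lower at 12 h, and of the 15 tested members with a window and no match 7 were lower. Of the 6 tested members with a GAS match 2 were lower, and of the 16 without 10 were. Mx1, Mx2, Parp14, Parp9 and Ifi27 were tested but had no window, and all of them except Ifi27 were lower at 12 h. Of all genes tested, 21.5% were lower at 12 h, and this share was not split by motif. No test was made of these counts.

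The genes of the pathway around the members were described in the same fit, and their counts stand against 9.91% of all genes that rose and 5.25% that fell at 2 h, and against 21.8% and 21.5% at 12 h. No interferon gene could be tested: of 12 listed symbols 10 were in the table, and 8 of those had 0 counts in every library. Of 12 tested receptor and JAK-STAT genes, 2 rose at 2 h, and 4 rose and 1 fell at 12 h, where the block added a fall of Ifnlr1 (edgeR adjusted p = 0.0707, 0.0335 under the block). Those with the largest changes at 12 h were Ifngr2, the accessory chain of the interferon gamma receptor (log2FC -1.53 ± 0.11, edgeR adjusted p = 0.000138), Jak2, a kinase of that receptor (0.68 ± 0.17, edgeR adjusted p = 0.0155), and Ifnar1, a chain of the type I receptor. Ifngr2 was at 199 and 199 CPM in vehicle, 252 and 219 CPM at 2 h and 67.4 and 69.9 CPM at 12 h. Ifnar1 and the other chain of its receptor, Ifnar2, which is named here after its values were seen, rose at 12 h by 0.63 and 0.51 on the log2 scale (edgeR adjusted p = 0.00422 and 0.00752).

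Of 8 tested negative regulators of JAK-STAT signaling, 1 rose and 1 fell at 2 h (2 and 2 under the block), and 1 rose and 2 fell at 12 h. The phosphatase gene Ptpn6 fell (log2FC -2.00 ± 0.22, edgeR adjusted p = 0.000608), the phosphatase gene Ptpn11 rose (1.01 ± 0.10, edgeR adjusted p = 0.000391) and Pias3, an inhibitor of Stat proteins, fell (-0.58 ± 0.15, edgeR adjusted p = 0.0208). Of 9 tested adaptors and kinases upstream of interferon, 1 rose and 2 fell at 2 h (2 and 4 under the block), and 2 rose and 6 fell at 12 h. Tlr3, the endosomal receptor of double-stranded RNA, was at 13.3 and 13.1 CPM in vehicle, 5.26 and 3.88 CPM at 2 h and 2.83 and 3.59 CPM at 12 h. Its log2FC was -1.53 ± 0.23 at 2 h and -2.04 ± 0.23 at 12 h (edgeR adjusted p = 0.00697 and 0.000746). Tlr4, the lipopolysaccharide receptor, had a log2FC of -1.08 at 2 h and -1.83 at 12 h, and the adaptor gene Tirap 0.95 at 12 h, with edgeR adjusted p of 0.0369, 0.00209 and 0.00114.

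**Figure D5:**
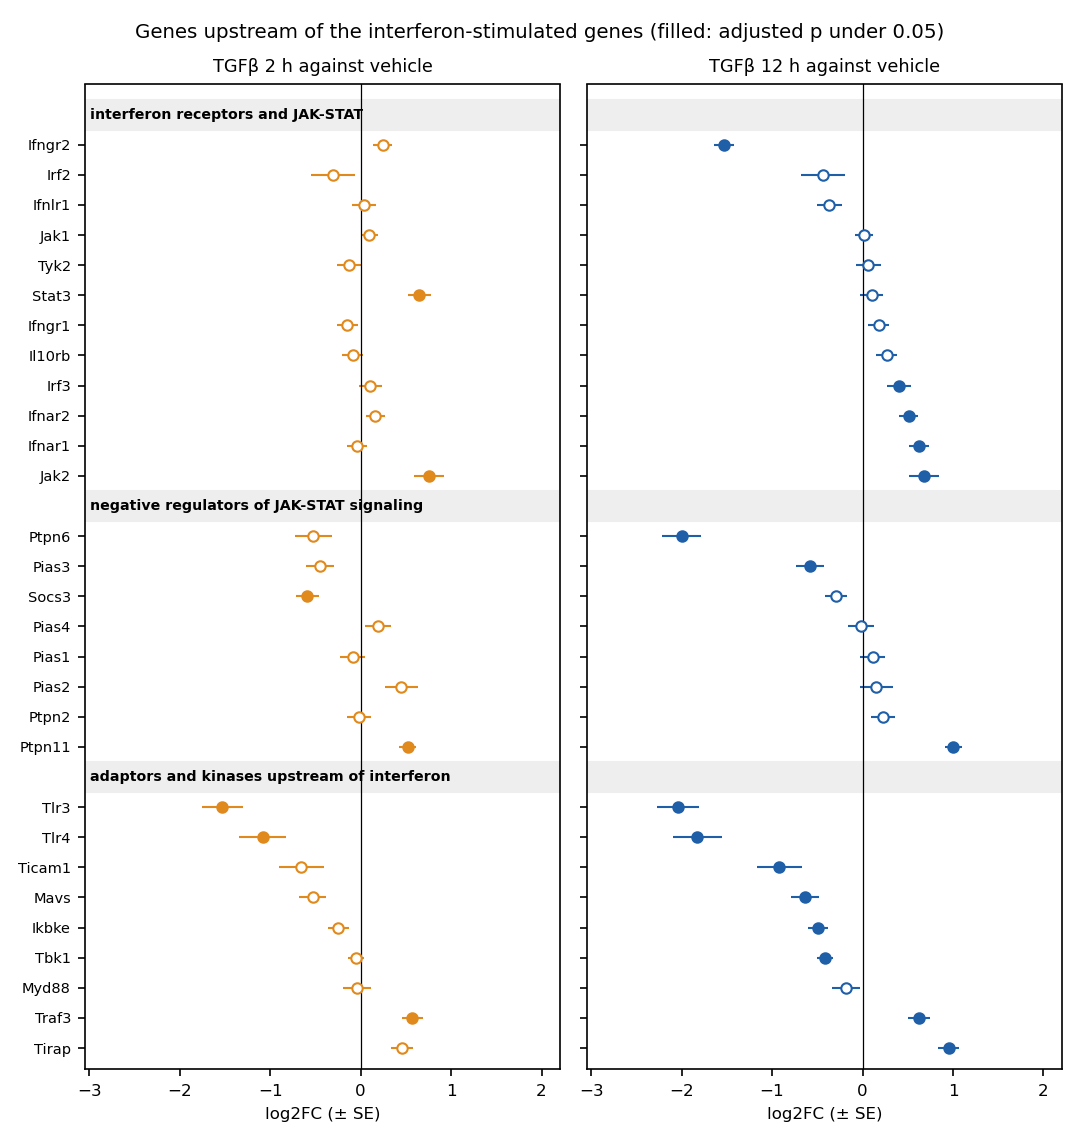
Log2FC with its standard error of tested receptor, JAK-STAT, regulator and adaptor genes at 2 h (left, orange) and 12 h (right, blue) against vehicle; filled symbols have an edgeR adjusted p under 0.05. Filled symbols stand on both sides of 0, with Tlr3, Ptpn6, Tlr4 and Ifngr2 farthest to the left at 12 h.

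Of 24 tested further interferon-stimulated genes, 5 rose and 1 fell at 2 h (5 and 3 under the block), and 8 rose and 6 fell at 12 h (8 and 8 under the block), with a median log2FC of -0.18 at 12 h. The counts at 12 h lie near the shares of all genes given above. The largest changes at 12 h were those of Slfn9 and Slfn2, of the Schlafen family, and of Apol9b, of the apolipoprotein L family. Slfn9 fell from 2.12 and 4.84 CPM in vehicle to 0.131 and 0.0513 CPM at 12 h (log2FC -5.11 ± 0.66, edgeR adjusted p = 0.0012), and Slfn2 from 28.4 and 14.6 CPM to 1.26 and 0.975 CPM (-4.25 ± 0.55, edgeR adjusted p = 0.00121). Slfn9 passed the filter only through both vehicle libraries and 1 library of 2 h, so that it entered the test through groups where its level was higher. Slfn2, Ifitm3, Herc6 and Ptpn6, and the members Mx1 and Gbp2, reached that level in no 12 h library. They passed through the vehicle and 2 h libraries. Apol9b rose from 0 and 0.318 CPM in vehicle to 3.66 and 4.36 CPM at 12 h (edgeR adjusted p = 0.00275), but no vehicle library reached the filter, so that its being tested depended on a higher level with TGFβ. Its reads may be shared with its close copy Apol9a. Of 12 further antigen presentation genes, 3 rose and 1 fell at 12 h (5 and 2 under the block), with Pdia3, a chaperone of peptide loading, at 0.82 ± 0.11, the proteasome activator gene Psme3 at 0.50 ± 0.10 and Tapbpl, a homolog of tapasin, at -0.49 ± 0.15 (edgeR adjusted p = 0.00141, 0.00752 and 0.0401).

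All 5 TGFβ target genes set as a check rose at both times. Of 10 epithelial markers 6 were tested, while Epcam, Cldn3, Cldn7 and Esrp1 were at or below 1 CPM in every library, and the summed level of the list was 5020 to 5860 CPM in vehicle, 6530 to 6540 CPM at 2 h and 10400 to 10500 CPM at 12 h. The members of this list moved apart: at 12 h Krt8, Krt18 and Cldn4, which reached the filter only with TGFβ, rose, with Krt8 and Krt18 making up most of the sum, and Krt19 fell (log2FC -1.95 ± 0.13, edgeR adjusted p = 0.000103). Ocln was not called without the block (edgeR adjusted p = 0.117, 0.00936 under the block) and Cdh1 was not called at 12 h. Of 8 immune cell markers none reached the filter, and their sum lay between 1.02 and 1.82 CPM in all libraries. The 5 endothelial markers, none of which reached the filter, summed to 0.471 to 0.573 CPM in vehicle, 0.556 to 1.01 CPM at 2 h and 2 to 2.13 CPM at 12 h. This higher sum at 12 h was that of Cdh5, with 1 and 2 counts in vehicle and 39 and 36 counts at 12 h, while Kdr and Tie1 had 0 counts in the vehicle and 12 h libraries. Its part in the results was not tested.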

How the data were processed

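Total RNA of 6 NMuMG libraries was read as single 50 bp reads. According to the methods of the study, the authors aligned filtered reads to mm9 with the subjunc aligner of Rsubread, kept unique alignments, removed duplicates with SAMtools 0.1.19 and counted reads on UCSC known genes by strand with featureCounts. What was deposited are these raw counts, not normalized. Duplicate removal may compress the counts of abundant genes such as B2m, and unique alignment may divide reads of paralogs unevenly.

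In R 4.3.3, edgeR (4.0.16), DESeq2 (1.42.0) and limma (3.58.1) were used for the counts, and Python 3.11.15 for positions and promoter windows. Genes reaching 2 CPM in 2 or more libraries were tested with edgeR by quasi-likelihood after scaling by TMM factors (0.961 to 1.07), in 1 fit of the 3 groups without a block. The two-sided p-values of each comparison were adjusted after Benjamini and Hochberg. The SE is the log2FC, without its sign, over the root of the test's F. Called means an adjusted p under 0.05. CPM values are TMM-normalized, 0.25 CPM was added before logarithms of ratios of libraries, and levels per kb were divided by the exon length of GENCODE on NCBIM37, which may differ from the gene models of the authors. Libraries with the same replicate number in the labels deviated together across genes (r = 0.708 for vehicle and 2 h, 0.263 for vehicle and 12 h, 0.392 for 2 h and 12 h), so values with the replicate number as a block stand beside calls against vehicle that it changes. The labels call the replicates biological and name no shared batch or day.

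The 49 members and the lists around them were chosen with earlier results of these data known. Within each role list, values per library are given for the 3 tested members with the smallest adjusted p at 12 h, for every member called at 2 h, and for members whose call at 2 h changed with the block. From each surrounding list up to 3 called genes with the largest absolute log2FC at 12 h were named. Bst2, Lgals3bp and Psmb10 are given by library, and Ifnar2, Ifnlr1 and the genes of the closing section that are no members are named, after their values were seen. From the surrounding lists 1 gene was left out and is not reported here. Promoter windows are RefSeq sequences on GRCm38.p6. The edgeR fit without a block was tested on simulated counts, and the other steps were not. Depth per library was 14705886 to 23786993 counts, at which 3 counts are 0.131 to 0.191 CPM. This covers counting error only. The settings tried besides were the replicate block, fits of only the 2 groups compared, fits without each single library, limma-voom, DESeq2 as a whole, its size factors within edgeR, no TMM factors, a minimum of 10 counts per library, and no filter. Columns of other samples were not present (0), and other assays of the study were not analysed here.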

Additional observations from a re-analysis of the deposited data

Results flagged for a closer look

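For 7 of the 27 tested members, and for 14% of all genes tested, the log2FC against vehicle had opposite signs at 2 h and 12 h, and the difference between the times passed edgeR's quasi-likelihood test. Both comparisons share the vehicle libraries. The difference between the times does not use their levels, but its test uses them for the estimate of the spread in the same fit.

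The log2FC from 2 h to 12 h was -1.14 for Bst2, -0.83 for Lgals3bp, -0.98 for H2-K1, -0.64 for H2-D1 and -0.59 for Psmb10, all of which had positive values at 2 h that did not pass the test. It was 0.56 for Irf9 and 0.33 for B2m, which had negative values at 2 h that did not pass the test. The 12 h libraries lay below both 2 h libraries for the 5 genes with a fall, and for Irf9 and B2m the 12 h libraries lay above both. These genes were chosen by this same difference, so the separation adds no support. Of the 11080 genes tested, 3787 lay below and 3857 above in this way. Among these 7, the difference held in every alternative tested for Bst2 and Lgals3bp. With 1 library left out, the call was lost for H2-K1 without TGFb12h replicate 1, for H2-D1 without either 2 h library or TGFb12h replicate 1, for Irf9 without any 1 of the 2 h or 12 h libraries, and for Psmb10 and B2m without any 1 of the 6 libraries.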

How the results depend on the processing

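Against vehicle at 2 h, 3 members were lower, 5 with total counts without TMM factors, 7 with the replicate block and 0 to 6 with 1 library left out: 0 without either vehicle library, 1 without either 12 h library and 6 without TGFb2h replicate 1. None was higher, 1 with the block and 0 to 1 with 1 library left out. At 12 h, 16 were lower, 16 to 19 under the other settings and 9 to 18 with 1 library left out, the fewest without veh replicate 1 and 10 without veh replicate 2. None was higher, with 1 in DESeq2 and 3 with the block. From 2 h to 12 h, 13 fell (5 to 12 with 1 library left out, the fewest without TGFb12h replicate 1 and 7 without TGFb12h replicate 2) and 2 rose (1 without a filter, 1 with only the 2 groups compared, 0 to 1 with 1 library left out). The median log2FC of the members in that interval was -0.595, -0.41 with at least 10 counts in every library, -0.214 with only the 2 groups compared and -0.611 to -0.211 with 1 library left out, where fewer members were tested in the settings nearest to 0. Without a filter, 2 members and not 1 were called higher in replicate 2. Among the members the block also added Parp12 to those that fell from 2 h to 12 h, which made 14, and beside the calls given with their block values it changed no other call of a member.

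Signs changed only for values that were not called. At 2 h these were Irf1 (limma-voom -0.018, total counts -0.035, -0.601 to 0.508 with 1 library left out), Stat2 (-0.395 to 0.006 with 1 left out), Ifi27 (total counts -0.093, -0.266 to 0.257 with 1 left out), H2-D1 (total counts -0.018, -0.054 to 0.251 with 1 left out), Psmb10 and Tapbp (total counts -0.002 and -0.004). With 1 left out, they were Irf1 (-0.353 to 0.098) and Ifi27 (-0.384 to 0.06) at 12 h. From 2 h to 12 h they were Irf1 (-0.665 to 0.46), Isg20 (-0.367 to 0.219), Eif2ak2 (-0.015 to 0.342), Dtx3l (-0.15 to 0.016), Parp9 (-0.238 to 0.005), Samd9l (-0.262 to 0.26) and Ifi27 (-0.422 to 0.072). The cause was not tested. Total counts without TMM factors shifted the median of all genes by -0.111 at 2 h and -0.129 at 12 h, and moved the share of higher genes among calls from 65.4% to 46.7% and from 50.3% to 37.6%.

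Where 1 library was left out, the call at 12 h was lost for Dtx3l, Parp9 and Bst2 without any 1 of the vehicle or 12 h libraries, for Lgals3bp without veh replicate 1 or TGFb12h replicate 1, for Parp12 without veh replicate 1 or TGFb12h replicate 2, for H2-K1 without veh replicate 2 or TGFb12h replicate 1, and for Samd9l without TGFb12h replicate 2, with adjusted p of up to 0.22.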

Other observations

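Among the further interferon-stimulated genes, some transcripts rose at 12 h, where 16 of the 27 tested members were lower and none was higher, and these were named after their values were seen. Irgm1, an interferon-inducible GTPase of the IRG family, was at 75.8 and 74.4 CPM in vehicle, 127 and 122 CPM at 2 h and 326 and 351 CPM at 12 h, with log2FC 0.73 ± 0.10 at 2 h and 2.17 ± 0.10 at 12 h (edgeR adjusted p = 0.00465 and 4.05e-05). The level of Nmi, a partner of Stat proteins, was 5.82 and 6.43 CPM in vehicle, 10.2 and 10.3 CPM at 2 h and 11.6 and 11.3 CPM at 12 h, with log2FC 0.90 ± 0.16 at 12 h (edgeR adjusted p = 0.00473).

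Ifitm3, Herc6, Trim21 and Tor3a were likewise named after their values were seen. Ifitm3, which blocks the entry of enveloped viruses, did not differ from vehicle in the test at 2 h and fell at 12 h: it was at 5.71 and 5.03 CPM in vehicle, 4.60 and 6.30 CPM at 2 h and 0.305 and 0.513 CPM at 12 h (log2FC -3.71 ± 0.35, edgeR adjusted p = 0.000352). Herc6, the main ligase for Isg15 in mice, fell from 5.71 and 6.94 CPM in vehicle to 1.39 and 1.23 CPM at 12 h (log2FC -2.26 ± 0.24, edgeR adjusted p = 0.00061). Trim21, a cytosolic antibody receptor, was lower at 2 h than in both other groups, with 12.2 and 11.0 CPM in vehicle, 4.50 and 4.49 CPM at 2 h and 10.5 and 9.03 CPM at 12 h. Its log2FC was -1.37 ± 0.18 at 2 h and 1.12 ± 0.18 from 2 h to 12 h (edgeR adjusted p = 0.00435 and 0.00439). Tor3a moved the other way, with log2FC 0.77 ± 0.12 at 2 h and -1.03 ± 0.12 from 2 h to 12 h (edgeR adjusted p = 0.00789 and 0.0014).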
